A study of Mus musculus with 8 samples.

Results

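The genes described here carry out regulated cell death: the initiator caspases Casp8 and Casp9, the inflammatory caspase Casp1, the necroptosis genes Ripk1, Ripk3 and Mlkl, and the parthanatos genes Parp1 and Aifm1. They were chosen by symbol from the table of gene counts, which held 7 of the 8 among its 26824 genes; Ripk3 was not analysed here. Retina was sequenced from untreated mice aged 1 month, 3 wild type (WT) and 5 labelled as knockouts (KO) of Kv8.2, the potassium channel subunit of photoreceptors encoded by Kcnv2, and each library pooled the 2 retinas of 1 mouse. The strain, the sex and the kind of knockout allele are not given in the sources used here, and nothing but the genotype is stated to differ between the groups. The series text says that 2 KO samples were left out of the authors' own test, without naming them, so every library was compared, numbered WT 1, 2 and 3 and KO 2 through 6.

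Photoreceptors can die by several routes. In apoptosis, a death receptor activates caspase 8, or cytochrome c released from mitochondria activates caspase 9 on the Apaf1 scaffold, and either initiator then cleaves downstream caspases. When caspase 8 is blocked, the kinase RIPK1 can instead activate RIPK3, which phosphorylates MLKL, and MLKL breaks the plasma membrane (necroptosis). In parthanatos, overactive PARP1 makes poly(ADP-ribose), and the mitochondrial flavoprotein AIF, encoded by Aifm1, moves to the nucleus, where DNA is cut. Most of these proteins are switched on by cleavage, phosphorylation or relocation, which RNA levels do not show.

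Library totals were 17759146 to 25188870 counts. Kcnv2, the targeted gene, was at 519 to 551 CPM (counts per 1000000) in WT and 398 to 585 CPM in the KO-labelled libraries (log2 fold change -0.24, edgeR adjusted p = 0.275), with -0.04 for KO 2 and KO 3 (edgeR adjusted p = 0.903) and -0.38 for KO 4 to KO 6 (edgeR adjusted p = 0.000116). A gene-level count at this level does not check the labels, and every direction below is that of libraries labelled KO against those labelled WT. KO 4, KO 5 and KO 6 stood apart: their mitochondrial genes took 3.03% to 3.70% of counts, against 5.23% and 6.52% in KO 3 and KO 2 and 7.09% to 7.92% in WT. KO 4 to KO 6 also differed little among themselves (chi-square per degree of freedom 5.85 to 6.92), while KO 2 and KO 3 differed from each other (110) more than KO 2 did from KO 4 (44.0). Folds for KO 2 and KO 3 and for KO 4 to KO 6, which share the same WT libraries, are given beside the pooled ones for each tested member and called pathway gene. KO 3 held 5.01% lens transcripts and every other library at most 0.167%, and WT 3 alone held Y-linked RNA (2132 counts of Ddx3y, against 1 to 3). WT 3 had 9 counts of Xist, against 30144 to 59443 in the other libraries. By these genes WT 3 was male and every other library, including all those labelled KO, female. Of 10 rod marker genes none was at 0 in any library, with a summed level of 43780 to 47481 CPM in WT and 38998 to 57015 CPM in KO-labelled libraries; edgeR called 1 of them (Sag) higher over all 8 libraries, and 5 higher and 2 lower for KO 4 to KO 6. The 9 cone markers, none at 0, summed to 975 to 1215 CPM in WT and 707 to 930 CPM in KO-labelled libraries, without overlap, with 3 (Gnat2, Gngt2 and Pde6h) called lower, 1 (Pde6c) called higher and a median log2 fold change of -0.47. Over all genes, edgeR called 4.74% higher and 2.84% lower with all 8 libraries. For KO 4 to KO 6 it called 22.3% higher and 20.5% lower. In bulk tissue, fewer cells of a type and less RNA per cell cannot be told apart. The part of cones in the results below was not tested. Of 10 amacrine and horizontal cell markers, 1 (Calb1) was called lower, and of the 45 tested markers of bipolar, ganglion, pigment epithelium, lens, red and other white blood cells, edgeR called 0 over all 8 libraries (10 at an unadjusted p-value under 0.05), DESeq2 5 and limma voom 19, where these tools called 15.5% and 40.9% of all genes. For KO 4 to KO 6, edgeR called 9 of 44 higher and 23 lower, 13 of the 23 being lens genes, against 22.3% and 20.5% of all genes.

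One member, Parp1, was called higher in the KO-labelled libraries, by 1.42-fold (95% interval 1.21 to 1.66). It was called in 6 of the 18 fits without 1 or 2 libraries. It was not called for KO 2 and KO 3 against WT (edgeR adjusted p = 0.148). The other 4 members abundant enough to test, Casp8, Casp9, Ripk1 and Aifm1, did not pass, with fitted fold changes of 0.877 to 1.09. Casp1 and Mlkl were near the limit of detection, did not pass the filter on low counts and were not tested. Among the 63 tested genes of the surrounding pathways, 4 rose and 2 fell. Of all 20167 genes tested, 7.58% were called, 4.74% as higher and 2.84% as lower, at an edgeR adjusted p-value under 0.05 (with library size alone, 6.71%, 2.81% and 3.9%), so 1 call among 5 tested members cannot be read as a property of the group.

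**Figure D1:**
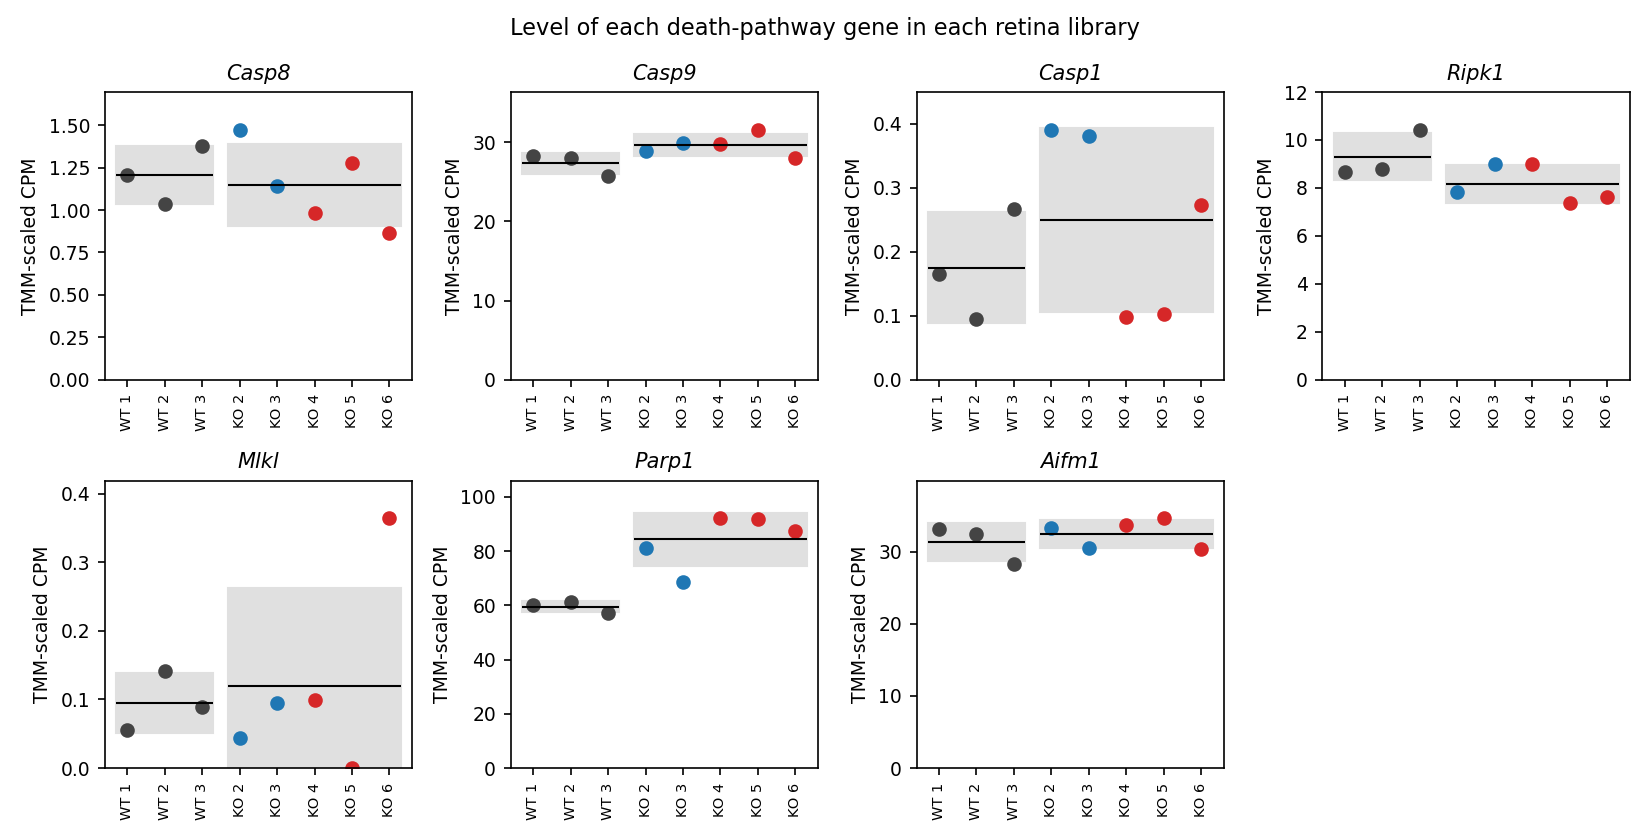
Level of each analysed member in each library, in CPM scaled by TMM (the trimmed mean of M values); each point is 1 library, the line the group mean and the grey band 1 SD. Points are grey for WT, blue for KO 2 and KO 3 and red for KO 4 to KO 6. Parp1 separates the groups without overlap, while the other members overlap.

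Per kilobase of the longest annotated transcript, the members fell into separate ranges of abundance in WT retina. Parp1 was at 14.8 to 15.8 and Aifm1 at 12.6 to 14.8 CPM per kilobase, so these neighbours met at the edges of their ranges. Casp9 followed at 6.61 to 7.25, Ripk1 at 1.34 to 1.61 and Casp8 at 0.400 to 0.533 CPM per kilobase, each clear of the next. Casp1 (0.0628 to 0.178) and Mlkl (0.0274 to 0.0704) overlapped at the bottom. In the KO-labelled libraries Parp1 (17.7 to 23.8 CPM per kilobase) and Aifm1 (13.5 to 15.5) no longer met, and the other members kept this order of group means.

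Casp8 is the initiator caspase of the death receptor route and also restrains necroptosis by cleaving RIPK1 and RIPK3. Its gene (ENSMUSG00000026029) lies on chromosome 1 at 58795374 to 58847503 of GRCm38, plus strand. It was at 1.21, 1.03 and 1.38 CPM in WT 1 to WT 3 and at 1.48, 1.14, 0.985, 1.28 and 0.866 CPM in KO 2 to KO 6, on 19 to 34 counts per library. The groups overlapped, with both the highest and the lowest value among the KO-labelled libraries. On the log2 scale Casp8 differed by -0.07 (SE 0.27; edgeR adjusted p = 0.896; 0.12 for KO 2 and KO 3, -0.20 for KO 4 to KO 6), with a 95% interval of -0.67 to 0.53, so at this depth neither a fall to 0.630 nor a rise to 1.44 times the WT level lies outside the interval. Of the 31-base words of its transcripts, 8.36% also occur in another annotated gene, so some of its reads may be shared.

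Casp9, the initiator that cytochrome c and Apaf1 activate, is on chromosome 4 at 141793612 to 141815976, plus strand (ENSMUSG00000028914). It was at 28.2, 28.0 and 25.8 CPM in WT and at 29.0, 30.0, 29.8, 31.6 and 28.0 CPM in KO 2 to KO 6. The lowest KO-labelled library, KO 6, lay within the WT range and the other 4 above it. Mean Casp9 was 27.3 ± 1.37 CPM (SD, n = 3) in WT against 29.7 ± 1.36 CPM (SD, n = 5) in KO-labelled libraries. For Casp9 the fit gave a log2 fold change of 0.12 (SE 0.09; 95% interval -0.08 to 0.31; edgeR adjusted p = 0.412), and of 0.11 for KO 2 and KO 3 and 0.14 for KO 4 to KO 6. After a correction of every library for GC content it was -0.06, on the other side of 0 (edgeR adjusted p = 0.750).

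Casp1 cleaves interleukin 1 beta, interleukin 18 and gasdermin D in inflammasomes, and is known mainly from myeloid cells such as microglia. It lies on chromosome 9 at 5298517 to 5307265, plus strand (ENSMUSG00000025888). Its counts were 3, 2 and 6 in WT and 9, 8, 2, 2 and 6 in KO 2 to KO 6, where 3 counts correspond to 0.130 to 0.164 CPM. KO 2 and KO 3 were at 0.391 and 0.380 CPM, above every WT library (0.0940 to 0.266 CPM), KO 6 (0.273 CPM) was just above that range, and KO 4 and KO 5 lay within it. It did not pass the filter on low counts. Fitted without that filter, it gave a log2 fold change of 0.50 (SE 0.68; edgeR adjusted p = 0.720), so a difference was not detectable at this depth. The 13 analysed microglia markers, none at 0 in any library, summed to 69.5 to 80.2 CPM in WT and 87.6 to 112 CPM in the KO-labelled libraries. Over all 8 libraries edgeR called 2 of them, Csf1r and Tmem119, higher (4.74% of all genes). It called 0 higher for KO 2 and KO 3 (0.624% of all genes) and 7 for KO 4 to KO 6 (22.3%). The part of microglia in the Casp1 counts was not tested.

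Ripk1, the kinase at which survival, apoptosis and necroptosis signals of the TNF receptor meet, is on chromosome 13 at 34002363 to 34037147, plus strand (ENSMUSG00000021408). It was at 8.66, 8.79 and 10.4 CPM in WT and at 7.81, 8.99, 9.01, 7.36 and 7.61 CPM in KO 2 to KO 6. KO 5, KO 6 and KO 2 lay under the WT range, and KO 3 and KO 4 inside it. Mean Ripk1 was 9.30 ± 0.988 CPM (SD, n = 3) in WT against 8.16 ± 0.787 CPM (SD, n = 5) in KO-labelled libraries. This difference, -0.19 on the log2 scale (SE 0.13; 95% interval -0.49 to 0.11), did not pass (edgeR adjusted p = 0.386). It was -0.15 for KO 2 and KO 3, -0.21 for KO 4 to KO 6, -0.098 without WT 3 and -0.085 with GC correction. Ripk1 overlaps Serpinb6a on the other strand, which had 160 to 272 counts per library against 144 to 235 for Ripk1; the strand setting is not given in the sources used here, so the division of reads between the pair is uncertain.

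Mlkl, the membrane-breaking executioner of necroptosis, is on chromosome 8 at 111311797 to 111338177, minus strand (ENSMUSG00000012519). It had 1, 3 and 2 counts in WT and 1, 2, 2, 0 and 8 in KO 2 to KO 6. Only KO 6, at 0.364 CPM, stood above the level of 3 counts, and the 0 counts of KO 5 allow a level of up to 0.153 CPM. Fitted without the filter on low counts, Mlkl gave a log2 fold change of 0.32 (SE 0.99; edgeR adjusted p = 0.892). Of the 3 necroptosis genes, then, Ripk1 alone was measured well enough to compare.

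Parp1 detects DNA breaks and builds poly(ADP-ribose) from NAD. It lies on chromosome 1 at 180568924 to 180601254, plus strand (ENSMUSG00000026496). It was at 60.1, 61.2 and 57.2 CPM in WT and at 81.2, 68.7, 92.2, 91.9 and 87.4 CPM in KO 2 to KO 6. Every KO-labelled library was above every WT library; KO 3 came nearest to WT and KO 4 to KO 6 were farthest. Mean Parp1 was 59.5 ± 2.03 CPM (SD, n = 3) in WT against 84.3 ± 9.80 CPM (SD, n = 5) in KO-labelled libraries. This rise, 0.50 on the log2 scale (SE 0.10; edgeR adjusted p = 0.0246), was larger than the spread between libraries. Of all tested genes, 20.9% separated the groups without overlap, 10.8% with the KO-labelled libraries higher and 10.1% with them lower.

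The size of the Parp1 difference varied among the KO-labelled libraries, with KO 2 nearer to KO 6 than to KO 3. It was 0.33 (SE 0.10; edgeR adjusted p = 0.148) for KO 2 and KO 3 against WT, a comparison that called 0.891% of genes, and 0.62 (SE 0.06; edgeR adjusted p = 1.04e-05) for KO 4 to KO 6 against WT, which called 42.8%. Leaving out WT 1, WT 2, WT 3, KO 4, KO 5 or KO 6 alone ended the call, with edgeR adjusted p-values of 0.109, 0.107, 0.105, 0.0625, 0.0605 and 0.0501 and log2 fold changes of 0.47 to 0.53. Without KO 3, the library with lens transcripts, it was 0.58 (edgeR adjusted p = 0.00201), and with GC correction it was 0.42 (edgeR adjusted p = 0.0271), in a fit that called 5.68% of genes (3.46% higher, 2.22% lower).

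Aifm1 encodes apoptosis-inducing factor, the mitochondrial effector downstream of PARP1. It lies on chromosome X at 48474944 to 48513563, minus strand (ENSMUSG00000036932). It was at 33.2, 32.4 and 28.2 CPM in WT and at 33.3, 30.5, 33.7, 34.7 and 30.3 CPM in KO 2 to KO 6. The ranges overlapped, and the lowest value of all belonged to WT 3, the library with Y-linked RNA. Mean Aifm1 was 31.3 ± 2.66 CPM (SD, n = 3) in WT against 32.5 ± 1.96 CPM (SD, n = 5) in KO-labelled libraries. The fit put Aifm1 at a log2 fold change of 0.05 (SE 0.09; 95% interval -0.15 to 0.26; edgeR adjusted p = 0.753), 0.03 for KO 2 and KO 3, 0.08 for KO 4 to KO 6 and -0.01 without WT 3. The ratio of Parp1 to Aifm1 CPM within a library, which does not depend on scaling between libraries, was 1.81, 1.89 and 2.03 in WT and 2.44, 2.25, 2.74, 2.65 and 2.89 in KO 2 to KO 6, without overlap. Parp1 alone already separated the groups, so this ratio is not separate support for its rise. The difference between the changes of Parp1 and Aifm1 was not tested, and with GC correction their log2 fold changes were closer, at 0.42 and 0.17.

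**Figure D2:**
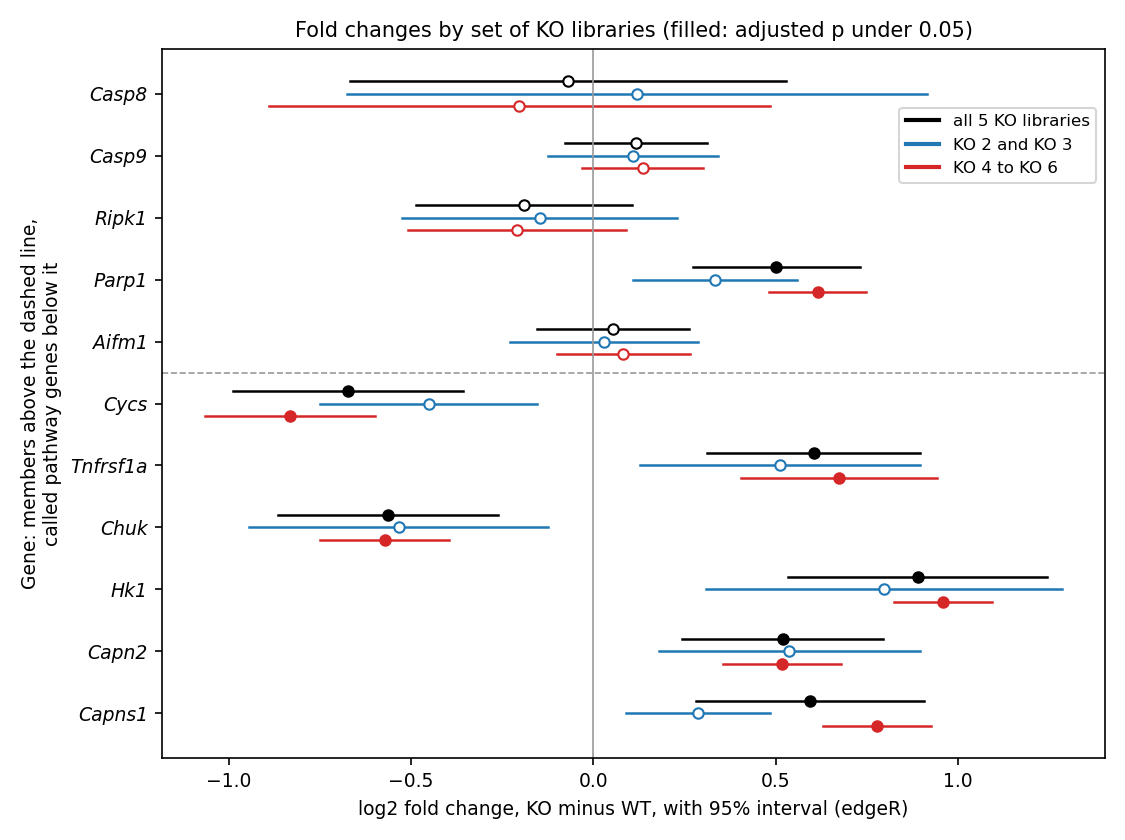
Log2 fold change of each tested member and each called pathway gene, KO minus WT, with its 95% interval from edgeR, for all 5 KO-labelled libraries (black), KO 2 and KO 3 (blue) and KO 4 to KO 6 (red) against the same 3 WT libraries. Filled points have an adjusted p-value under 0.05; Parp1 is filled for 2 of the 3 sets, and Casp8, Casp9, Ripk1 and Aifm1 for none.

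By the pattern of its levels over the 8 libraries, Parp1 was nearest to Nup214, a nuclear pore protein, then to Rgl3 and Trim66, among 12801 other named genes whose log2 CPM averaged 1 or more. Likeness was the root mean square distance between centred log2 CPM values, which was 0.030, 0.040 and 0.046 for these 3, where the profile of Parp1 itself had a root mean square of 0.27. Nup214 was at 38.3 to 40.7 CPM in WT, at 55.1 (KO 2) and 46.0 CPM (KO 3), and between 60.7 and 61.2 CPM in the other KO-labelled libraries. These points share libraries, depth and the split among the KO-labelled libraries.

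The genes around the members were taken from 6 lists of 73 genes, of which 66 were in the table and 63 passed the filter on low counts and were tested: 4 were called higher, 2 lower and 57 not called (9.52% called, against 7.58% of all tested genes). Scaled by library size alone, 2 were called higher and 3 lower (2.81% and 3.9% of all genes). Their median log2 fold change was 0.07, and that of all tested genes was 0.00073. For KO 2 and KO 3 against WT, edgeR called 0 of the 63, and 11 had an unadjusted p-value under 0.05. For KO 4 to KO 6 against WT, 18 were called higher and 13 lower (22.3% and 20.5% of all genes).

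**Figure D3:**
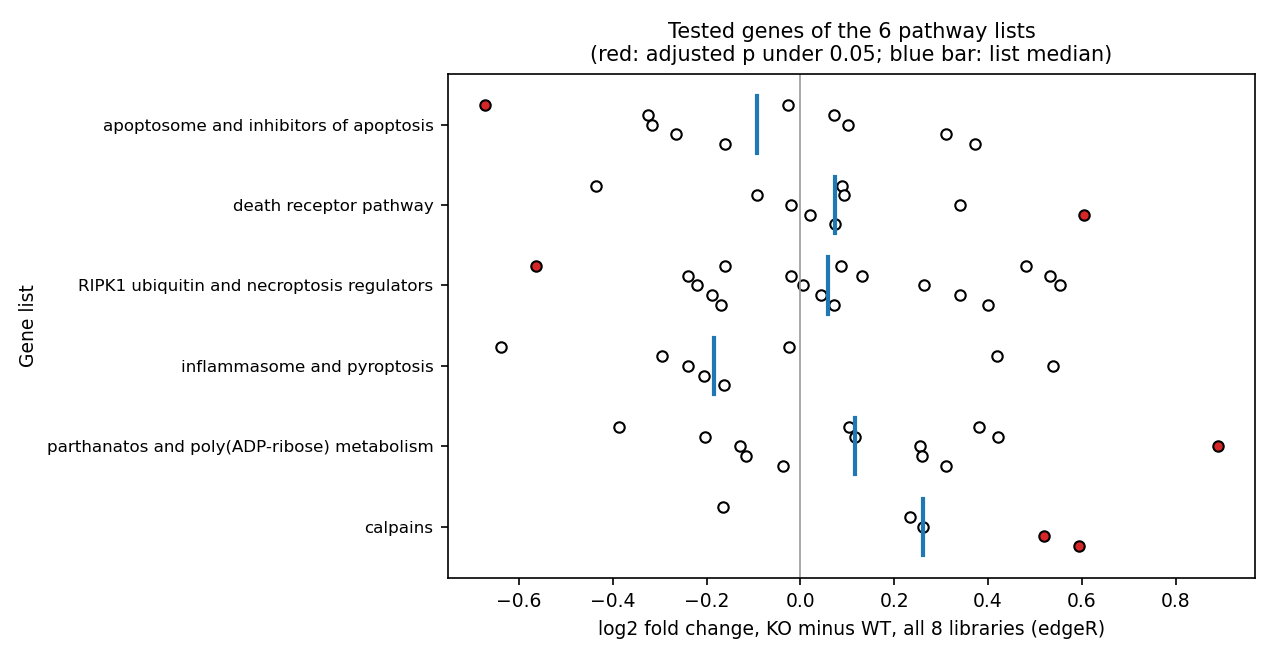
Log2 fold change, KO minus WT, of the tested genes of each pathway list, with 1 point per gene and a blue bar at the list median. Red points have an edgeR adjusted p-value under 0.05. The called genes are Cycs at -0.67, Chuk at -0.56, Capn2 at 0.52, Capns1 at 0.59, Tnfrsf1a at 0.60 and Hk1 at 0.89.

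**Figure D4:**
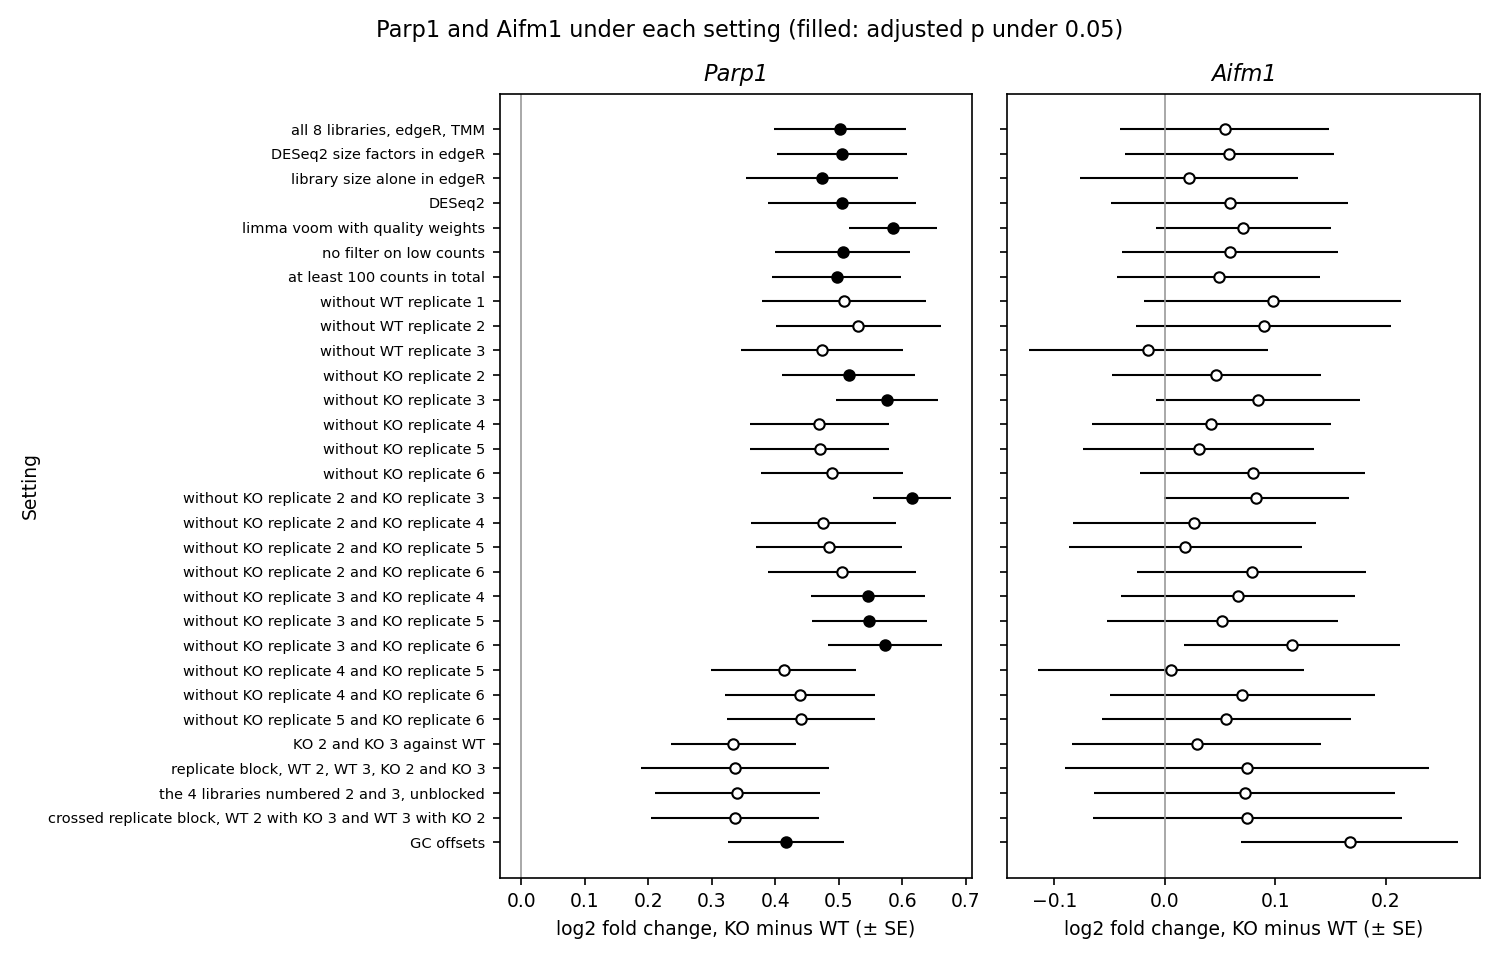
Log2 fold change of Parp1 and Aifm1, KO minus WT, with its SE, under every setting tried. Filled points have an adjusted p-value under 0.05. Parp1 stays between 0.33 and 0.62 with many open points, and Aifm1 between -0.015 and 0.17 with open points alone.

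Of the 10 genes of the apoptosome and the inhibitors of apoptosis, edgeR called Cycs alone, and it fell; the list median was -0.09. DESeq2 called 3 of the 10 and limma voom 6, against 15.5% and 40.9% of all genes (edgeR 7.58%). For KO 4 to KO 6, edgeR called 2 higher and 5 lower, against 22.3% and 20.5% of all genes. Birc2, an inhibitor of apoptosis picked after its values were seen, had an edgeR adjusted p-value of 0.0547, or 0.0242 with library size alone. Cycs encodes cytochrome c, the respiratory carrier that triggers the apoptosome when it leaves mitochondria. It was at 48.8, 59.7 and 45.1 CPM in WT and at 37.8, 37.0, 29.9, 30.6 and 25.2 CPM in KO 2 to KO 6 (log2 fold change -0.67, SE 0.14, edgeR adjusted p = 0.0259). For KO 2 and KO 3 it was -0.45 (edgeR adjusted p = 0.144) and for KO 4 to KO 6 -0.83 (edgeR adjusted p = 6.5e-05), and with GC correction of all 8 libraries it was -0.44 (edgeR adjusted p = 0.0443). The levels follow the order WT, then KO 2 and KO 3, then KO 4 to KO 6, as the mitochondrial share of counts does; the part of that share in the result was not tested. The call was lost without WT 1, WT 2, WT 3, KO 4 or KO 5, and 29.2% of the 31-base words of Cycs occur in other genes, so its count is uncertain. Apaf1, the scaffold on which caspase 9 is activated, picked for that role after its values were seen, had a log2 fold change of -0.16 (SE 0.11; edgeR adjusted p = 0.375).

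In the death receptor list, edgeR called 1 of 9 tested genes (DESeq2 1, limma voom 2), and it rose: Tnfrsf1a, which encodes the TNF receptor upstream of RIPK1 and caspase 8. It was at 7.68, 8.28 and 6.71 CPM in WT and at 11.8, 9.75, 11.7, 12.4 and 11.8 CPM in KO 2 to KO 6, without overlap and with KO 3 the lowest of its group. For KO 4 to KO 6, 2 genes of the list were called higher and 0 lower by edgeR, against 22.3% and 20.5% of all genes. With all 8 libraries, edgeR called 7.58% of all genes, DESeq2 15.5% and limma voom 40.9%. For Tnfrsf1a the log2 fold change was 0.60 (SE 0.13; edgeR adjusted p = 0.0284), and it was 0.51 for KO 2 and KO 3 (edgeR adjusted p = 0.175) and 0.67 for KO 4 to KO 6 (edgeR adjusted p = 0.00084). It was not called with GC correction (0.43, edgeR adjusted p = 0.0627) or without WT 1, WT 2, WT 3, KO 4, KO 5 or KO 6. Fadd and Cflar, the adaptor and the inhibitor of caspase 8, picked in the same way, had log2 fold changes of 0.02 and 0.09 (edgeR adjusted p = 0.932 and 0.721).

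Among 18 regulators of RIPK1 and necroptosis, edgeR called 1, Chuk, a kinase of the NF-kappa-B pathway that also phosphorylates RIPK1, which fell; the median was 0.06. DESeq2 called 2 of the 18 and limma voom 8, against 15.5% and 40.9% of all genes (edgeR 7.58%). For KO 4 to KO 6, edgeR called 4 higher and 4 lower, against 22.3% and 20.5% of all genes. Chuk was at 51.8, 47.2 and 48.5 CPM in WT and at 26.1, 41.8, 33.6, 29.2 and 35.5 CPM in KO 2 to KO 6 (log2 fold change -0.56, SE 0.14, edgeR adjusted p = 0.0373), or -0.53 for KO 2 and KO 3 (edgeR adjusted p = 0.181) and -0.57 for KO 4 to KO 6 (edgeR adjusted p = 0.000131). KO 3 lay nearest to WT and KO 2 farthest. The call ended with GC correction (-0.40, edgeR adjusted p = 0.0817) and without WT 1, WT 2, WT 3, KO 4, KO 5 or KO 6.

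Of 8 tested inflammasome and pyroptosis genes, 0 were called by edgeR, 0 by DESeq2 (15.5% of all genes called), 3 by limma voom (40.9%), and 2 had an unadjusted edgeR p-value under 0.05. For KO 4 to KO 6, edgeR called 1 higher and 2 lower, where it called 42.8% of all genes. The gene with the greatest absolute change was Aim2, a sensor of cytosolic DNA, with a log2 fold change of -0.64 (SE 0.24; edgeR adjusted p = 0.115). It was at 1.54 to 1.69 CPM in WT and 0.774 to 1.14 CPM in the KO-labelled libraries.

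In the list for parthanatos and poly(ADP-ribose), edgeR called 1 of 13 tested genes (DESeq2 1, limma voom 7), and it rose: Hk1, hexokinase 1, which poly(ADP-ribose) can inhibit. These tools called 7.58%, 15.5% and 40.9% of all genes, and for KO 4 to KO 6, where edgeR called 42.8%, it called 6 of the list higher and 1 lower. Hk1 was at 687, 715 and 769 CPM in WT and at 1583, 933, 1358, 1436 and 1396 CPM in KO 2 to KO 6, with KO 3 nearest to WT. Hk1 had a log2 fold change of 0.89 (SE 0.16; edgeR adjusted p = 0.0152), and it was 0.80 for KO 2 and KO 3 (edgeR adjusted p = 0.124) and 0.96 for KO 4 to KO 6 (edgeR adjusted p = 5.84e-07). The call ended without WT 1, WT 2 or WT 3. Parp2, the closest relative of Parp1, and Parg, which degrades poly(ADP-ribose), had log2 fold changes of -0.20 and -0.13 (edgeR adjusted p = 0.398 and 0.374), and both were picked for their roles after their values were seen.

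Calpains, calcium-activated proteases that can act beside PARP1 in dying photoreceptors, had 2 of 5 tested genes called higher by edgeR (2 were called by DESeq2, 4 by limma voom) and a median log2 fold change of 0.26. Over all genes edgeR called 4.74% higher, DESeq2 called 15.5% and limma voom 40.9%. Log2 fold changes in the list ran from -0.17 to 0.59, and with GC correction the list median was 0.08. For KO 4 to KO 6, edgeR called 3 of the 5 higher and 1 lower, against 42.8% of all genes. Capn2, the catalytic subunit of calpain 2, was at 22.5, 23.3 and 23.4 CPM in WT and at 27.1, 39.8, 32.0, 35.3 and 31.2 CPM in KO 2 to KO 6 (log2 fold change 0.52, SE 0.12, edgeR adjusted p = 0.0365; 0.54 for KO 2 and KO 3, edgeR adjusted p = 0.145, and 0.52 for KO 4 to KO 6, edgeR adjusted p = 0.000148). Capns1, the shared small subunit, was at 61.1, 65.7 and 59.6 CPM in WT and at 75.2, 76.3, 99.6, 113 and 105 CPM in KO 2 to KO 6 (log2 fold change 0.59, SE 0.14, edgeR adjusted p = 0.0357). Both were above WT in every KO-labelled library, and the log2 fold change of Capns1 was 0.78 for KO 4 to KO 6 (edgeR adjusted p = 4.55e-06) and 0.29 for KO 2 and KO 3 (edgeR adjusted p = 0.154). With scaling by library size alone, Capn2 was at 0.49 (edgeR adjusted p = 0.0575) and Capns1 at 0.57 (edgeR adjusted p = 0.0631), near the values above but not called. With GC correction, Capn2 was at 0.46 (edgeR adjusted p = 0.0410) and Capns1 at 0.47 (edgeR adjusted p = 0.0376). Neither was called without WT 1, WT 2, WT 3, KO 4, KO 5 or KO 6, with log2 fold changes of 0.50 to 0.54 for Capn2 and 0.52 to 0.65 for Capns1. Of 10 Muller glia markers, none at 0 in any library, 5 were called higher, and their sum was 4227 to 4449 CPM in WT and 4490 to 6581 CPM in the KO-labelled libraries. Of 9 endothelial and pericyte markers, likewise none at 0, 2 were called higher, with sums of 311 to 322 and 398 to 492 CPM. These calls used all 8 libraries, where edgeR called 4.74% of all genes higher. For KO 4 to KO 6, 7 Muller glia and 6 endothelial and pericyte markers were called higher (22.3% of all genes). For KO 2 and KO 3, 1 and 2 were called higher (0.624%). The part of these cell types in the calpain and Tnfrsf1a results was not tested.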

How the data were processed

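The authors deposited whole-number estimated counts per gene, with no scaling, for 26824 genes and 8 libraries; per the submitters' processing notes Trim Galore, Salmon 1.10.2 and DESeq2 were used with GRCm38. The annotation release and strand setting are not given in the sources used here. No gene had fewer than 16 counts in total. Counts were scaled by TMM, filtered with filterByExpr and compared with edgeR 4.0.16 (glmQLFit, glmQLFTest, no covariate, R 4.3.3), with Benjamini-Hochberg adjustment over all 20167 tested genes and calls at an adjusted p-value under 0.05. P-values measure the spread between mice of each label. Those for KO 4 to KO 6 use the small spread among these libraries and that of WT. In that comparison, genotype cannot be told apart from whatever else set KO 4 to KO 6 apart. Standard errors came from the fold change and F statistic. The steps were tested on simulated counts without the split among KO-labelled libraries, lens transcripts or a GC shift, so that test does not cover these. Libraries of 1 group differed beyond sampling noise (chi-square per degree of freedom at least 5.85). Positions, lengths, GC content and 31-base words came from GENCODE M21 (GRCm38), matched by identifier for 22121 genes. Alternatives were DESeq2 1.42.0, limma 3.58.1 voom, other scalings and filters, GC offsets, and fits without 1 or 2 libraries. Named were the members, Kcnv2, every called pathway gene, the gene of greatest absolute change in a list with none, and the 3 genes nearest to Parp1; exceptions are marked. Members and lists were chosen with earlier results of these data known. Levels of 3 counts cover counting error only. 1 further pathway list is not reported here.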

Additional observations from a re-analysis of the deposited data

Results flagged for a closer look

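In 13 genes (the 7 analysed members and the 6 called pathway genes), the highest and the lowest of the 5 KO-labelled libraries were compared with their nearest neighbour, 26 values in all, and 2 lay past the limit of 0.71 of the group's range; chance gives such a gap in about 1 of 20 groups. Mlkl in KO 6 was set off upward by 0.73 of the range, on 8 counts against 0 to 2 in the other KO-labelled libraries. Tnfrsf1a in KO 3 was set off downward by 0.72 of the range, at 9.75 CPM against 11.7 to 12.4 CPM.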

How the results depend on the processing

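Over all genes, 1529 were called with all 8 libraries (956 higher, 573 lower; 566 and 787 with library size alone), 3130 by DESeq2, 8248 by limma voom, 180 for KO 2 and KO 3 against WT, and 118 (without KO 4 and KO 5) to 8416 (without KO 2 and KO 3) when libraries were left out; the count was 132, 135 and 199 without WT 1, WT 2 and WT 3, and 2781, 3992, 365, 388 and 531 without KO 2 to KO 6 in turn. Called members numbered 1 or 0 when libraries were left out; 0 were called by edgeR for KO 2 and KO 3 against WT and in the fits of 4 libraries below, where 1, Parp1, had an unadjusted p-value under 0.05, and DESeq2 and limma voom, run on all 8 libraries, each called 1. Called pathway genes numbered 6 with all libraries, 30 by limma voom, 9 by DESeq2, 0 for KO 2 and KO 3 (11 at an unadjusted edgeR p-value under 0.05), and 0 to 31 when libraries were left out (0 without WT 1, WT 2 or WT 3, where 13, 11 and 9 had an unadjusted p-value under 0.05, and 9, 12, 1, 1 and 2 without KO 2 to KO 6 in turn). Parp1 was at 0.33 for KO 2 and KO 3 and ranged from 0.41 to 0.62 when libraries were left out. Casp8 was at 0.12 for KO 2 and KO 3 and 0.013 with GC offsets, and ranged from -0.27 to 0.11; Casp9 was at -0.057 with GC offsets; Ripk1 was at -0.085 with GC offsets and -0.098 without WT 3, and ranged from -0.29 to -0.098; Aifm1 ranged from -0.015 to 0.12, and was at -0.015 without WT 3. The cause of these shifts was not tested. WT and KO share the numbers 2 and 3, and the differences between them correlated at -0.19 between WT and KO. No positive pairing was seen, but 2 libraries per group cannot show whether same-numbered libraries share more than a number. With the replicate block on these 4 libraries, 52 genes were called, 0 of them members and 0 pathway genes, 9 of which had an unadjusted p-value under 0.05 (Casp8 0.12, Parp1 0.34), against 14, 0 and 0 without a block (0.12 and 0.34) and 527, 0 and 0 with the numbers crossed (0.12 and 0.34); the fits without and with crossed numbers were chosen after seeing the data. Depth limited Casp1, Mlkl and Casp8.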
